A study of Mus musculus with 18 samples.

Results

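Expression of 10 genes of the tail bud and of somite segmentation was examined in mouse embryos at E11.5, namely *T*, *Tbx6*, *Msgn1*, *Mesp2*, *Hes7*, *Lfng*, *Dll1*, *Dll3*, *Uncx* and *Meox1*. They were chosen by name as a readout of axial stage and of developmental delay, and are 10 of 34244 genes in the table. The embryos were of the FVB strain and came in 3 genotypes with 3 embryos each, which were *Dnmt3b+/+*, *Dnmt3b-/-* and *Dnmt3b CI/CI*. The *Dnmt3b-/-* embryos carry a conventional knockout allele made from an allele with loxP sites, and the *Dnmt3b CI/CI* embryos carry a knock-in of amino acid substitutions that inactivate the catalytic centre of the DNA methyltransferase Dnmt3b. Parents were *Dnmt3b+/-* or *Dnmt3b+/CI* mice, only live embryos were used, and each library is total RNA of 1 embryo labelled as whole.

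The tail bud is the growth zone at the posterior end of the embryo, and it adds tissue to the trunk and tail. Its progenitors, which express *T*, feed the presomitic mesoderm, where *Tbx6* and *Msgn1* set the mesodermal fate and where an oscillating network of *Hes7*, *Lfng* and the Notch ligands forms the segmentation clock. At the front of the presomitic mesoderm *Mesp2* sets the border of the next somite, and *Uncx* and *Meox1* then mark the somites. Several of these genes are also used elsewhere, since *Dll1*, *Dll3* and *Lfng* act in the developing nervous system and *Uncx* is made in neurons and in the embryonic kidney. In a bulk library, fewer cells that express a gene and less RNA per cell cannot be told apart.

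The sequence just upstream of 4 of the genes is shown because *T*, *Mesp2* and *Hes7* followed each other over the embryos in the data below, while *Lfng*, a target of the same clock, followed another group. With the mean of each genotype removed, *Hes7* followed *Lfng* (Pearson r of 0.60) as closely as *T* (0.58). RefSeq promoters were found for 9 of the 10 genes, and *Meox1* was not matched. The stretches are on the GRCm38.p6 build and all lie on the plus strand, with *T* at chr17:8434173-8434422, *Mesp2* at chr7:79810477-79810726, *Hes7* at chr11:69120203-69120403 and *Lfng* at chr5:140607091-140607319, and each ends just before the start of the GENCODE gene. Capitals mark any match, on either strand, to the E-box CANNTG, the N-box CACNAG, the core TGGGAA bound by the Notch effector RBPJ, or the T-box core AGGTGT.
T: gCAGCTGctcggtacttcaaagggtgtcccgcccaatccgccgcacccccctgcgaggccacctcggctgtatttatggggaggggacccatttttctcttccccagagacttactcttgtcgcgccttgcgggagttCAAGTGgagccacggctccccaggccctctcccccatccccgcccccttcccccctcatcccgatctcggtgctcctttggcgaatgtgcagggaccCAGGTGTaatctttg
Mesp2: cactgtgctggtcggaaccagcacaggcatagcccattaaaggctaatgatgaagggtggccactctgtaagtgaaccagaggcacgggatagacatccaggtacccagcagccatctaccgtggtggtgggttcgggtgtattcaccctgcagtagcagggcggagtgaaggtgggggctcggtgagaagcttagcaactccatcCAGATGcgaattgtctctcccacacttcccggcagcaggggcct
Hes7: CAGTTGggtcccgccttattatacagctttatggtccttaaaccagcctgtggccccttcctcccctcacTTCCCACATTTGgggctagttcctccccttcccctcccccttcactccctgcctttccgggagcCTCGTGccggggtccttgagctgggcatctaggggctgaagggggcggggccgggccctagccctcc
Lfng: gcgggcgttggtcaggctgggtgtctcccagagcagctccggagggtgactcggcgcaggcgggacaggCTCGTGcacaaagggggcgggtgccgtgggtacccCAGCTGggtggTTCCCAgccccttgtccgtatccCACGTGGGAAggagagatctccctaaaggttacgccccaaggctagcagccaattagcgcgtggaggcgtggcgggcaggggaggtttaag
The only T-box match lies next to the start of *T* and overlaps an E-box. The *Lfng* stretch holds 2 copies of the RBPJ core, and 1 of them overlaps the palindromic E-box CACGTG. *Hes7* holds 1 RBPJ core, which adjoins an E-box, and 1 N-box, and *Mesp2* holds an E-box alone. Over the 250 bases upstream of all 32851 RefSeq starts, 66.2% held the E-box, 6.02% held CACGTG, 36.7% held the N-box, 21.6% held the RBPJ core and 11.8% held the T-box core. Among the 9 members with a promoter, the same motifs were found in 7, 1, 4, 3 and 1. These are matches of letters and not known binding sites.

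Levels are in FPKM, fragments per kilobase of exon and per fixed number of mapped fragments, a unit that is already per length. The libraries held between 38451730 and 49808777 reads, and the number of reads behind each value of the 10 genes could be worked back. The targeted gene, *Dnmt3b*, was at 2.45 to 3.33 FPKM in the libraries labelled *Dnmt3b-/-* and thus no lower than in *Dnmt3b+/+*, at 1.62 to 2.25 FPKM. That value is summed over the gene and does not show whether part of it was deleted, so the genotype is taken from the label throughout.

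Several libraries held next to no RNA of marker genes of a body region or an organ, which goes against the label of a whole embryo. *Alb*, which encodes the liver protein albumin, was at 0.103 FPKM in *Dnmt3b+/+* embryo 2 and at 9.67 to 85.7 FPKM in the other 8 embryos. *Myh6*, a myosin gene of heart muscle, was at 0.363 FPKM in *Dnmt3b+/+* embryo 1 and 0.590 FPKM in *Dnmt3b CI/CI* embryo 3 against 5.38 to 17.1 FPKM elsewhere. The 15 Hox genes of groups 5 to 9 in the table, a list chosen after the data were seen, summed to 30.5 and 20.6 FPKM in the embryos 2 and 3 labelled *Dnmt3b-/-*, against 184 FPKM in embryo 1 of that label, 81.0 to 129 FPKM in *Dnmt3b+/+* and 147 to 184 FPKM in *Dnmt3b CI/CI*. The 12 Hox genes of groups 10 to 13 were not low in those embryos, with sums of 51.7 and 34.3 FPKM, and were lowest in *Dnmt3b+/+* embryos 2 and 3, with sums of 13.8 and 20.7 FPKM. *En2*, a gene of the midbrain and hindbrain border, was high in *Dnmt3b+/+* embryo 2 at 7.22 FPKM and in embryo 1 labelled *Dnmt3b-/-* at 6.62 FPKM, and was at 0.0316 to 2.96 FPKM in the other 7. The part of these differences in the results below was not tested, other than by leaving out embryos.

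**Figure D1:**
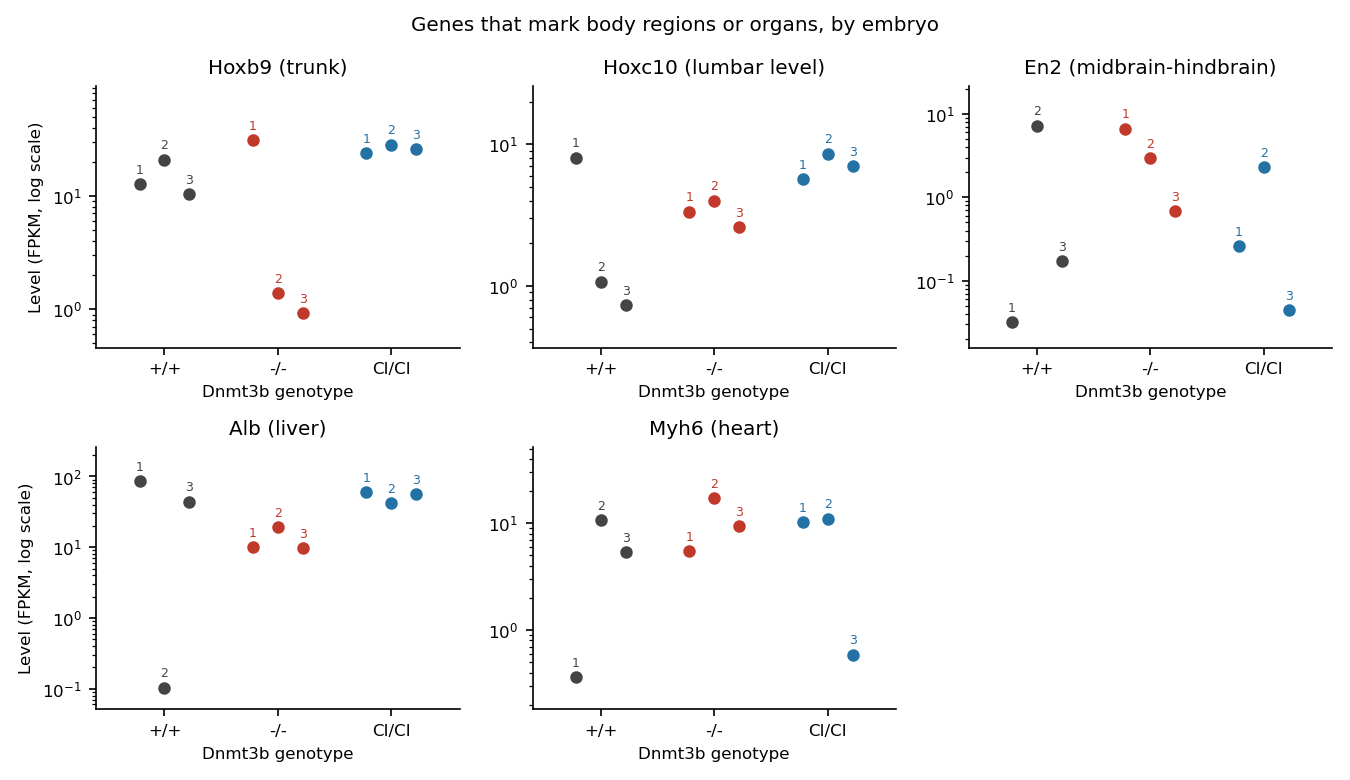
Levels in FPKM, on a log scale, of 5 genes that mark a body region or an organ, with a point and a number for each of the 3 embryos of every genotype. *Hoxb9* is at 1.39 and 0.920 FPKM in the embryos 2 and 3 labelled *Dnmt3b-/-* and at 10.4 FPKM or more in the other 7, *Alb* is close to 0 in *Dnmt3b+/+* embryo 2, and *Myh6* is low in *Dnmt3b+/+* embryo 1 and *Dnmt3b CI/CI* embryo 3.

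The 10 genes covered a wide range of levels. *Dll1*, *Uncx*, *Lfng* and *Dll3* were the most abundant, with means in *Dnmt3b+/+* of 7.43 ± 1.41, 7.23 ± 2.91, 6.69 ± 0.721 and 6.45 ± 2.69 FPKM (SD, n = 3), and neighbours in this order differed by less than their spread. *Meox1* followed at 4.28 ± 1.11 FPKM (SD, n = 3). The mesodermal and clock transcription factors were far lower, with *Tbx6* at 0.507 ± 0.0354, *T* at 0.314 ± 0.135, *Hes7* at 0.225 ± 0.0900 and *Mesp2* at 0.0603 ± 0.0388 FPKM (SD, n = 3). *Msgn1* had no reads in 8 of the 9 embryos. The order within the upper group was not stable, since the highest member was *Dll1* in 2 embryos, *Lfng* in 1, *Dll3* in 2 and *Uncx* in 4.

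**Figure D2:**
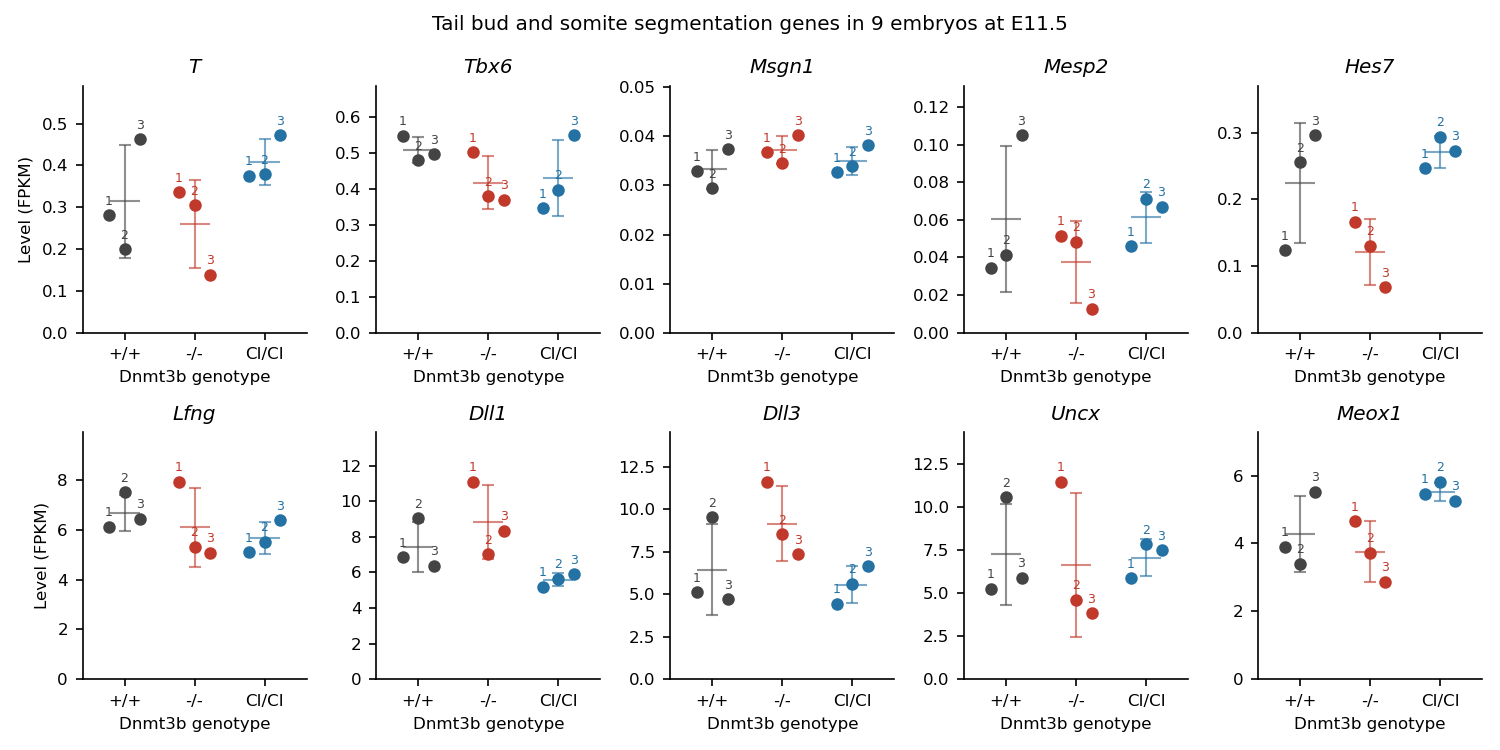
Level in FPKM of each of the 10 genes in every embryo, with the embryo's number above its point, and the mean and SD of the 3 embryos of each genotype as a bar. *Msgn1* sits at the floor of the table, *Dll1* is between 5.18 and 5.91 FPKM in *Dnmt3b CI/CI* and at 6.38 FPKM or above in the other 6 embryos, and *Uncx* is highest in *Dnmt3b+/+* embryo 2 and in embryo 1 labelled *Dnmt3b-/-*.

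*T*, the gene of the tail bud and notochord also known as Brachyury, lies on chromosome 17 at 8434423 to 8442496 on the plus strand. It was at 0.281, 0.199 and 0.463 FPKM in the *Dnmt3b+/+* embryos, at 0.336, 0.305 and 0.138 FPKM in those labelled *Dnmt3b-/-* and at 0.375, 0.379 and 0.472 FPKM in the *Dnmt3b CI/CI* ones. These values rest on 13 to 42 reads per library, and the lowest, 13 reads in embryo 3 labelled *Dnmt3b-/-*, has an exact Poisson 95% interval of 6.92 to 22.2 reads. Each *Dnmt3b CI/CI* value exceeded every value of the embryos labelled *Dnmt3b-/-*, while *Dnmt3b+/+* embryos spanned both. The intervals given here cover counting error only.

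*Tbx6*, the T-box factor that commits cells to paraxial mesoderm, lies on chromosome 7 at 126781483 to 126785560 on the plus strand. It was at 0.546, 0.479 and 0.495 FPKM in the *Dnmt3b+/+* embryos, at 0.500, 0.378 and 0.369 FPKM in those labelled *Dnmt3b-/-* and at 0.346, 0.397 and 0.548 FPKM in the *Dnmt3b CI/CI* ones, on 27 to 44 reads per library. The 3 genotypes overlapped, and the coefficient of variation was 6.99% in *Dnmt3b+/+*, 17.6% under the *Dnmt3b-/-* label and 24.4% in *Dnmt3b CI/CI*.

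*Msgn1*, a basic helix-loop-helix factor of the posterior presomitic mesoderm, lies on chromosome 12 at 11208360 to 11208972 on the minus strand. A single read was found in embryo 3 labelled *Dnmt3b-/-* and none in the other 8 embryos. By a one-sided 95% limit of 3 counts, which differs from the two-sided intervals given for the other genes, a count of 0 allows up to 3 reads, or 0.0983 to 0.127 FPKM at the depth of these libraries, so no difference between genotypes was detectable.

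*Mesp2*, which sets the border and the anterior identity of the forming somite, lies on chromosome 7 at 79810727 to 79813439 on the plus strand. The *Dnmt3b+/+* embryos gave 3, 4 and 8 reads, those labelled *Dnmt3b-/-* gave 4, 4 and 1, and the *Dnmt3b CI/CI* embryos gave 4, 6 and 5, or 15, 9 and 15 reads in all. The lowest library, with 1 read, has an exact Poisson 95% interval of 0.0253 to 5.57 reads, and the highest, with 8 reads, has one of 3.45 to 15.8 reads. The counting intervals of these libraries overlap, and like *Msgn1* the gene fell below the level required for testing, which was 0.1 FPKM in at least 3 embryos.

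*Hes7*, the repressor whose cyclic expression drives the segmentation clock, lies on chromosome 11 at 69120404 to 69124055 on the plus strand. It was at 0.124, 0.255 and 0.296 FPKM in the *Dnmt3b+/+* embryos on 10, 23 and 21 reads, at 0.166, 0.130 and 0.0682 FPKM in those labelled *Dnmt3b-/-* on 12, 10 and 5 reads, and at 0.246, 0.294 and 0.273 FPKM in the *Dnmt3b CI/CI* ones on 20, 23 and 19 reads. The embryos labelled *Dnmt3b-/-* lay below all 3 *Dnmt3b CI/CI* embryos, and *Dnmt3b+/+* embryo 1 lay among them. The gene shares 234 exon bases with *9130213A22Rik* on the opposite strand, which had 5 to 12 reads in the *Dnmt3b+/+* and *Dnmt3b CI/CI* libraries and 1 to 5 reads in those labelled *Dnmt3b-/-*. Whether counting used the strand is not stated, so reads of the pair cannot be told apart.

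*Lfng*, a glycosyltransferase that modifies Notch receptors, lies on chromosome 5 at 140607320 to 140615545 on the plus strand. It was at 6.12, 7.50 and 6.44 FPKM in the *Dnmt3b+/+* embryos, at 7.93, 5.32 and 5.07 FPKM in those labelled *Dnmt3b-/-* and at 5.10, 5.51 and 6.37 FPKM in the *Dnmt3b CI/CI* ones, on 515 to 936 reads per library. Embryo 1 labelled *Dnmt3b-/-* was the highest of the 9, and embryos 2 and 3 of that label were among the 3 lowest.

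*Dll1*, a Notch ligand of the presomitic mesoderm and of newly born neurons, lies on chromosome 17 at 15367354 to 15376872 on the minus strand. It was at 6.86, 9.04 and 6.38 FPKM in the *Dnmt3b+/+* embryos, at 11.1, 7.03 and 8.33 FPKM in those labelled *Dnmt3b-/-* and at 5.18, 5.65 and 5.91 FPKM in the *Dnmt3b CI/CI* ones. All 3 *Dnmt3b CI/CI* embryos lay below the other 6. The gene shares 867 exon bases with *A930024N18Rik* on the opposite strand, which had 206 to 442 reads per library against 959 to 1899 for *Dll1* and was likewise highest in *Dnmt3b+/+* embryo 2 and embryo 1 labelled *Dnmt3b-/-*.

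*Dll3*, a divergent ligand that dampens Notch signalling in the cell that makes it, lies on chromosome 7 at 28293553 to 28302238 on the minus strand. It was at 5.11, 9.55 and 4.70 FPKM in the *Dnmt3b+/+* embryos, at 11.6, 8.53 and 7.35 FPKM in those labelled *Dnmt3b-/-* and at 4.45, 5.62 and 6.64 FPKM in the *Dnmt3b CI/CI* ones. The embryos labelled *Dnmt3b-/-* exceeded each *Dnmt3b CI/CI* value and *Dnmt3b+/+* embryos 1 and 3, and only *Dnmt3b+/+* embryo 2 was as high.

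*Uncx*, a homeobox gene of the posterior part of each somite, lies on chromosome 5 at 139543494 to 139548179 on the plus strand. It was at 5.24, 10.6 and 5.89 FPKM in the *Dnmt3b+/+* embryos, at 11.4, 4.61 and 3.84 FPKM in those labelled *Dnmt3b-/-* and at 5.85, 7.82 and 7.49 FPKM in the *Dnmt3b CI/CI* ones. Its coefficient of variation was 63.2% under the *Dnmt3b-/-* label, the highest there among the 8 genes that could be tested, 40.2% in *Dnmt3b+/+*, where *T* and *Dll3* were at 42.9% and 41.7%, and 14.9% in *Dnmt3b CI/CI*.

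*Meox1*, a homeobox gene expressed throughout early somites, lies on chromosome 11 at 101877510 to 101894374 on the minus strand. It was at 3.90, 3.41 and 5.53 FPKM in the *Dnmt3b+/+* embryos, at 4.66, 3.73 and 2.87 FPKM in those labelled *Dnmt3b-/-* and at 5.47, 5.82 and 5.26 FPKM in the *Dnmt3b CI/CI* ones. Its 3 *Dnmt3b CI/CI* values lay above those of the embryos labelled *Dnmt3b-/-*, and *Dnmt3b+/+* embryo 3 lay with them.

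The first comparison asked whether these genes differ between the embryos labelled *Dnmt3b-/-* and *Dnmt3b+/+*. None of the 8 genes that could be tested was called, whether at an adjusted p under 0.05 with a fold change of at least 2, which 4.45% of all 19397 genes tested passed, or at the adjusted p alone, which 25.8% passed. For none of the 8 did the 3 values of the 2 genotypes separate, as they did for 38.9% of all genes tested. At an unadjusted p under 0.05, which 40.0% of all genes tested reached, the count was also 0. Differences are given on the log2(FPKM + 0.1) scale with the adjusted p of limma, and this scale understates changes of low genes. The largest differences were in *Dll3* at 0.55 (95% interval -0.09 to 1.19, adjusted p = 0.18) and in *Hes7* at -0.54 (95% interval -1.09 to 0.02, adjusted p = 0.134). *T* was at -0.20 (95% interval -0.85 to 0.44, adjusted p = 0.631). The interval of *Uncx*, from -1.14 to 0.69, was the widest of the 8. Those of *T*, *Tbx6* (-0.62 to 0.14), *Lfng* (-0.54 to 0.23), *Dll1* (-0.16 to 0.63) and *Meox1* (-0.64 to 0.28) left out a 2-fold change either way on this scale. The median over the 8 genes was -0.19 against -0.07 over all genes tested. Single embryos decided whether a gene passed at the adjusted p alone, since *Hes7* passed without *Dnmt3b+/+* embryo 1 (log2 -0.79, adjusted p = 0.0331), *Dll3* without *Dnmt3b+/+* embryo 2 (log2 0.86, adjusted p = 0.0306) and *Lfng* without embryo 1 labelled *Dnmt3b-/-* (log2 -0.35, adjusted p = 0.0434). Without the embryos 2 and 3 labelled *Dnmt3b-/-*, in which trunk Hox genes were low, 1 embryo of that label was left. The median of the 8 genes was then 0.20, with *Hes7* at -0.25. Without *Dnmt3b+/+* embryos 2 and 3, with 1 embryo of that genotype left, *Hes7* was at -0.041.

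In *Dnmt3b CI/CI* against *Dnmt3b+/+*, again 0 of the 8 genes were called at either threshold, where 0.129% of all genes passed with the fold change and 0.144% at the adjusted p alone, and the count at an unadjusted p under 0.05 was 0, beside 5.25% of all genes. *Dll1*, at -0.39 (95% interval -0.79 to 0.01, adjusted p = 0.949), was the only gene of the 8 whose values separated by genotype, as did 13.2% of all genes. *Meox1* was at 0.39 (95% interval -0.07 to 0.85, adjusted p = 0.949) and *T* at 0.34 (95% interval -0.31 to 0.99, adjusted p = 0.949). *Uncx* was at 0.02 with an interval of -0.89 to 0.94. The median of the 8 genes was -0.07 against 0.02 over all genes tested. Without *Dnmt3b+/+* embryos 2 and 3, with 1 embryo of that genotype left, the median of the 8 genes was 0.26.

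The embryos labelled *Dnmt3b-/-* were then compared with *Dnmt3b CI/CI* embryos, which share the lack of active Dnmt3b and differ in whether the protein is present. No gene passed with a fold change of at least 2, against 5.42% of all genes tested. At the adjusted p alone 2 of 8 genes passed, a share close to the 27.9% of all genes tested. *Dll1* was higher in the embryos labelled *Dnmt3b-/-* by 0.63 (95% interval 0.23 to 1.03, adjusted p = 0.0299), a 1.54-fold difference, with 8.82 ± 2.07 against 5.58 ± 0.368 FPKM (SD, n = 3). The neural genes *Sox2* (log2 0.95, adjusted p = 0.00823) and *Otx2* (log2 2.26, adjusted p = 0.00306) were higher in the same contrast, with *Sox2* at 30.2 to 43.1 FPKM in the embryos labelled *Dnmt3b-/-* and 15.2 to 24.2 FPKM in *Dnmt3b CI/CI*, and *Otx2* at 2.67 to 5.83 FPKM and 0.714 to 1.05 FPKM. Of the 15 genes of a neurogenic list, 2 rose and 0 fell at the adjusted p alone, and the neuronal genes *Dcx* at -0.82 (adjusted p = 0.0575), *Stmn2* at -0.74 (adjusted p = 0.0977) and *Tubb3* at -0.26 (adjusted p = 0.527) had the opposite sign. These neural genes were chosen after their values were seen, and the part of neural tissue in the difference of *Dll1* was not tested. *Hes7* was lower by 0.77 (95% interval -1.32 to -0.21 for the difference, adjusted p = 0.0461), with 0.122 ± 0.0496 against 0.271 ± 0.0238 FPKM (SD, n = 3). *Dll3* at 0.70 (95% interval 0.06 to 1.34, adjusted p = 0.0933), *Meox1* at -0.57 (95% interval -1.03 to -0.11, adjusted p = 0.0644) and *T* at -0.54 (95% interval -1.19 to 0.10, adjusted p = 0.181) did not pass. The values of 5 of the 8 genes separated by genotype, 2 with higher values in the embryos labelled *Dnmt3b-/-* (*Dll1* and *Dll3*) and 3 with lower values (*T*, *Hes7* and *Meox1*), beside 46.2% of all genes tested. *Tbx6* at -0.03 and *Lfng* at 0.08 had intervals of -0.41 to 0.35 and -0.30 to 0.47. Neither call was firm, since neither gene passed without embryo 3 labelled *Dnmt3b-/-* or without any single *Dnmt3b CI/CI* embryo. With a pseudocount of 0.01 FPKM the difference of *Hes7* was larger, at -1.17, and did not pass (adjusted p = 0.0522). *Hes7* also did not pass without embryo 2 labelled *Dnmt3b-/-*, and *Dll3* and *Meox1* passed as well without *Dnmt3b+/+* embryo 2. Without both embryos in which trunk Hox genes were low, 1 embryo labelled *Dnmt3b-/-* was left. The difference of *Dll1* was then 0.98 and that of *Hes7* -0.48. *Dll1* in that single embryo, at 11.1 FPKM, was the highest of all 9. This contrast and the 2 against *Dnmt3b+/+* share embryos and are not independent.

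**Figure D3:**
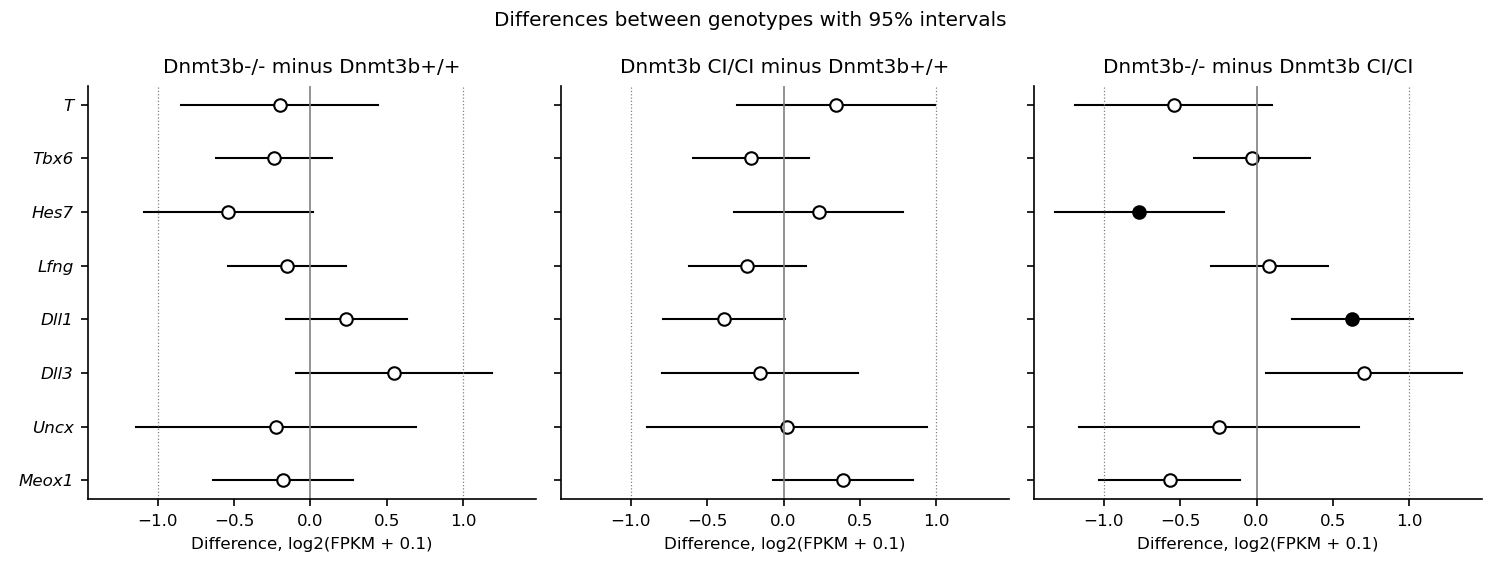
Differences between genotypes in log2(FPKM + 0.1) for the 8 genes tested, with 95% intervals from limma, in the 3 contrasts, where filled points have an adjusted p under 0.05 and dotted lines mark a 2-fold change. *Dll1* and *Hes7* in the right panel carry the only filled points, and both lie within the dotted lines.

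The members varied together in groups that cut across genotype. *T* and *Meox1* had a Pearson r of 0.93 over the 9 embryos, *T* and *Mesp2* 0.87, *Mesp2* and *Hes7* 0.81, and *T* and *Hes7* 0.72. The sclerotome gene *Pax1*, which is no member, had an r of 0.84 with *T* and 0.85 with *Meox1*. In the second group *Dll1* and *Dll3* had an r of 0.86, and *Lfng* and *Uncx* one of 0.83. *Tbx6* had an r of 0.75 with *Lfng* and 0.45 with *Uncx*. With *Dll1* and *Dll3* its r was 0.26 and 0.13, and with *T* and *Meox1* 0.30 and 0.13. *T* and *Uncx* had an r of 0.25. With the genotype means removed, the r of *T* and *Meox1* was 0.90, that of *Lfng* and *Uncx* 0.94 and that of *Dll1* and *Uncx* 0.88, the last being 0.38 before. All pairs of *Dll1*, *Dll3*, *Lfng* and *Uncx* then lay between 0.81 and 0.94. *Hes7* then had an r of 0.81 with *Mesp2*, 0.65 with *Meox1* and 0.58 with *T* of the first group, and 0.65 with *Uncx* and 0.60 with *Lfng* of the second. These values describe 9 libraries that share their preparation and the regional differences given above, and *Mesp2* rests on 1 to 8 reads.

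The members of the second group were set beside genes of the nervous system, over the 9 embryos and with the genotype means removed. Over the 9 embryos *Uncx* had an r of 0.95 with *Tubb3*, a tubulin gene of neurons, and 0.96 with *Lhx1*, a gene of interneurons and of the embryonic kidney, but 0.12 with *Sox2*, which marks neural progenitors. *Dll1* had an r of 0.91 with *Sox2*, but 0.31 with *Tubb3* and 0.26 with *Lhx1*. *Dll3* had an r of 0.78 with both *Sox2* and *En2* and 0.37 with *Tubb3*. These differences between the members were mostly not seen with the genotype means removed, where *Uncx*, *Dll1* and *Dll3* had an r of 0.97, 0.89 and 0.89 with *Tubb3*, of 0.98, 0.89 and 0.89 with *Lhx1* and of 0.59, 0.74 and 0.69 with *Sox2*. *Hes7*, of the first group, had an r of 0.66 with *Tubb3* (0.68 with the means removed) and -0.58 with *Sox2* (0.14). These genes were chosen after their values were seen. *Dnmt3b+/+* embryo 2 and embryo 1 labelled *Dnmt3b-/-*, where *Uncx*, *Dll3*, *Dll1* and *Lfng* took their 2 highest values, had the highest sums of the 15 genes of a neurogenic list, at 496 and 432 FPKM, against 255 to 347 FPKM in the other 7. *Tubb3* made up 273 and 221 FPKM of these sums, and other genes of the list did not share the order, since *Dcx* was at 10.5 FPKM in embryo 1 labelled *Dnmt3b-/-* and at 12.3 to 12.5 FPKM in *Dnmt3b CI/CI*. *Lhx1* was at 11.1 and 10.5 FPKM in this pair of embryos and at 3.06 to 8.71 FPKM in the others. The sums of the 6 kidney genes ranged from 43.4 to 61.6 FPKM over the 9 embryos and were mostly *Six2* and *Osr1*. *Pax2*, another gene of that list, was at 5.56 and 5.51 FPKM in this pair of embryos and at 4.53 to 6.04 FPKM in *Dnmt3b CI/CI*, against 0.839 to 2.51 FPKM in the other 4. *Hoxb9*, the trunk gene, had an r of 0.80 with *Uncx*, 0.69 with *Meox1*, -0.14 with *Dll1* and -0.12 with *Dll3*, and with the genotype means removed these were 0.90, 0.49, 0.79 and 0.61. The part of cell or tissue composition in the levels of the members was not tested.

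**Figure D4:**
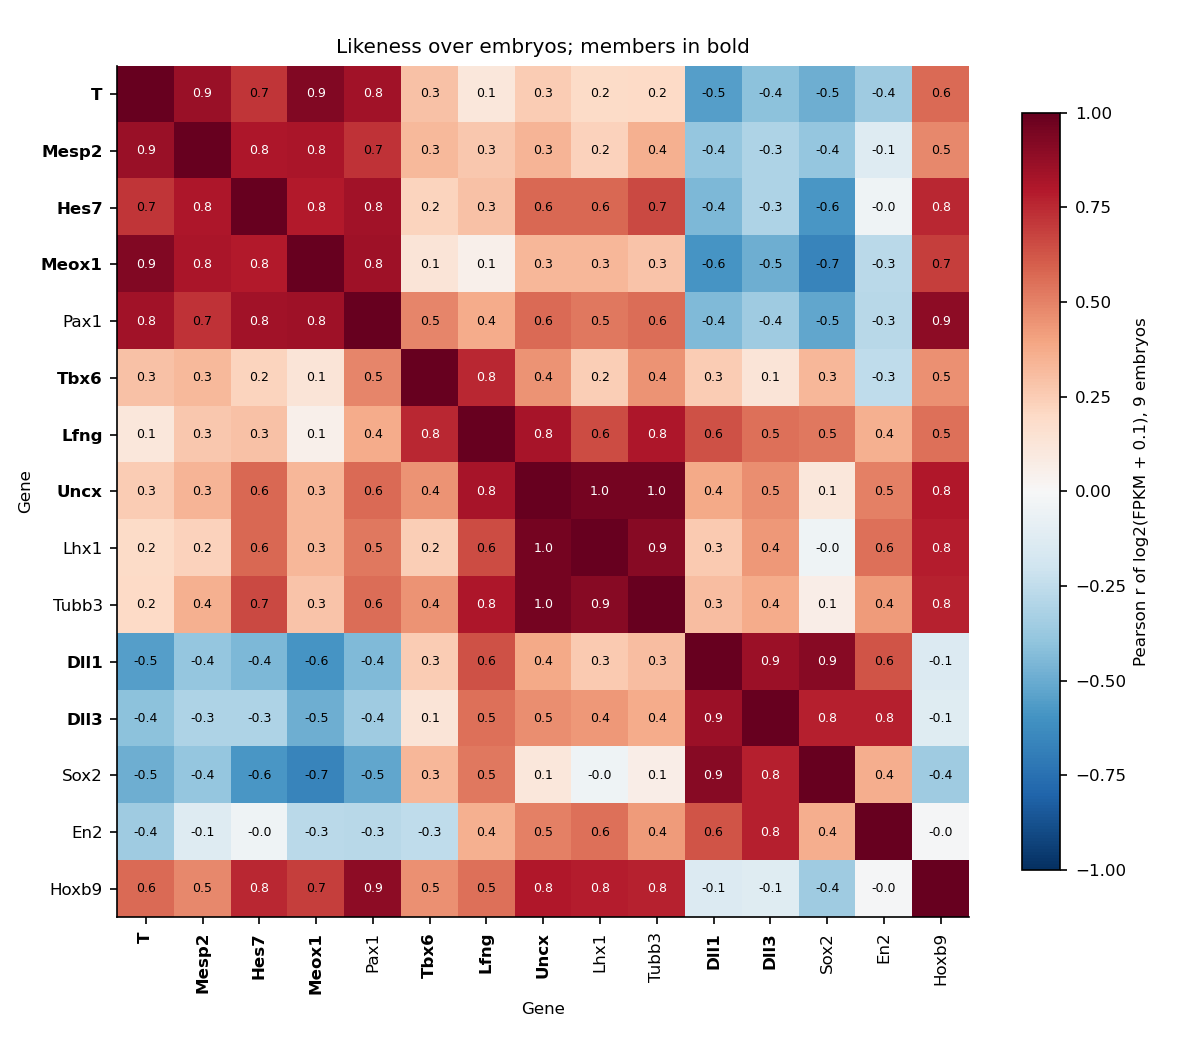
Pearson r of log2(FPKM + 0.1) over the 9 embryos between 9 of the 10 members, in bold, and 6 other genes, from -1 in blue to 1 in red. *T*, *Mesp2*, *Hes7* and *Meox1* form a red block with *Pax1*, *Lfng* and *Uncx* lie with *Lhx1* and *Tubb3*, and *Dll1* and *Dll3* lie with *Sox2*. The genotype means are not removed here, and with them removed *Dll1* and *Dll3* had an r of 0.88 and 0.86 with *Uncx*.

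A search over the tested genes with a mean of at least 1 FPKM gave the genes whose pattern over the 9 embryos was most like that of a member. For *T*, among 12796 genes, they were *Mogs*, *Slc12a4*, *Oaf*, *Meox1* and *Gmppb*, with an r of 0.92 to 0.95, so that 1 of the 5 was itself a member. For *Meox1* they were *Pgf*, *Synpo*, *Oaf*, *Cpxm1* and *Syde1*, with an r of 0.95 to 0.98, and *Oaf* stood in both searches. For *Uncx* they were *Fgfbp3*, *Tmem163*, *Agap3*, *Klc1* and *A730056A06Rik*, with an r of 0.98 to 0.99. For *Tbx6* they were *Gm12905*, *Ccdc71l*, *Zfp93*, *Il4i1* and *Gm17112*, with an r of 0.91 to 0.95. With so many genes and 9 points, values of this size are a ranking and no more.

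**Figure D5:**
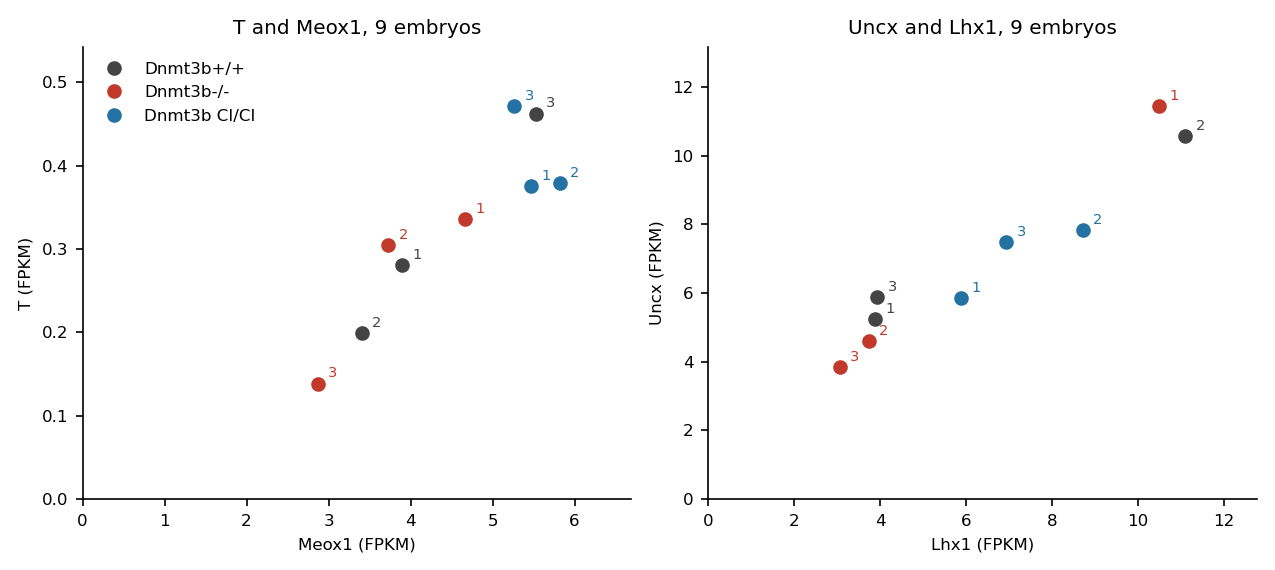
Levels in FPKM of *T* against *Meox1* (left) and of *Uncx* against *Lhx1* (right) in the 9 embryos, coloured by genotype and numbered. In the left panel *Dnmt3b+/+* embryo 3 lies with the *Dnmt3b CI/CI* embryos and embryo 3 labelled *Dnmt3b-/-* is lowest on both axes, while in the right panel *Dnmt3b+/+* embryo 2 and embryo 1 labelled *Dnmt3b-/-* lie above the other 7.

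Other genes of the same tissues were then counted by list. Of 18 genes of the tail bud, 15 could be tested, and in the embryos labelled *Dnmt3b-/-* against *Dnmt3b+/+* 3 rose by at least 2-fold and 0 fell, where 4.45% of all genes passed in either direction, beside a median of 0.24 for the list and -0.07 for all genes. At the adjusted p alone 4 of the 15 rose and 0 fell, a share close to the 25.8% of all genes. The 3 genes were *Lin28a*, an RNA-binding protein of early embryonic cells (log2 2.26, adjusted p = 0.00275), *Fgf8*, a growth factor of the tail bud, limb and brain (log2 1.74, adjusted p = 0.0163), and *Sall4*, a factor of progenitor cells and limbs (log2 1.33, adjusted p = 0.0111). *Fgf8* was at 1.06, 3.43 and 2.85 FPKM in the embryos labelled *Dnmt3b-/-*, at 0.830, 0.372 and 0.642 FPKM in *Dnmt3b+/+* and at 0.462, 0.479 and 0.462 FPKM in *Dnmt3b CI/CI*. *Wnt3a*, the Wnt ligand that maintains tail bud progenitors, was at -0.21 (adjusted p = 0.488) in the same contrast, with 0.711 to 0.851 FPKM in *Dnmt3b+/+* and 0.435 to 0.835 FPKM in the embryos labelled *Dnmt3b-/-*. Against *Dnmt3b CI/CI*, 5 of the 15 rose by at least 2-fold, with *Nkx1-2* and *Sp8* added, and 0 fell, where 5.42% of all genes passed, and at the adjusted p alone 6 rose, beside 27.9% of all genes. Without the embryos 2 and 3 labelled *Dnmt3b-/-*, in which trunk Hox genes were low, 1 embryo of that label was left. The median of the 15 genes against *Dnmt3b+/+* was then 0.095. The differences of *Lin28a*, *Sall4* and *Fgf8* from *Dnmt3b+/+* were 1.71, 1.05 and 0.75, and that of *Nkx1-2* from *Dnmt3b CI/CI* was 2.04. Without *Dnmt3b+/+* embryos 2 and 3, with 1 embryo of that genotype left, *Lin28a* was at 1.60, *Fgf8* at 1.30 and *Sall4* at 0.79.

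Of 30 genes of the presomitic mesoderm, the clock and the Notch pathway, 27 could be tested. Against *Dnmt3b+/+*, 0 passed with the fold change in the embryos labelled *Dnmt3b-/-*, 2 rose and 2 fell at the adjusted p alone, beside 25.8% of all genes, and 9 had an unadjusted p under 0.05, beside 40.0%. Against *Dnmt3b CI/CI*, 6 rose and 3 fell at the adjusted p alone, beside 27.9% of all genes. The genes named in this paragraph were chosen after their values were seen. Those that rose in the latter contrast included the receptor gene *Notch1* (log2 0.46, adjusted p = 0.0203) and the Notch targets *Hey1* (log2 0.46, adjusted p = 0.00379) and *Nrarp* (log2 0.73, adjusted p = 0.00896), whereas *Notch2* (log2 -0.34, adjusted p = 0.00791) and *Hey2* (log2 -0.62, adjusted p = 0.00394) fell. Without the 2 embryos of low trunk Hox levels, 1 embryo labelled *Dnmt3b-/-* was left. The median of the 27 genes in the latter contrast was then 0.097, against 0.055 with all embryos.

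Of 17 somite genes, all tested, 1 rose by at least 2-fold in the embryos labelled *Dnmt3b-/-* against *Dnmt3b+/+* and 0 fell, a share close to the 4.45% of all genes, and no other passed at the adjusted p alone. It was *Tcf15*, a factor that gives somites their epithelial form (log2 1.07, adjusted p = 0.0289), with 4.62, 3.87 and 6.43 FPKM in the *Dnmt3b+/+* embryos, 16.0, 9.51 and 7.20 FPKM in those labelled *Dnmt3b-/-* and between 6.16 and 8.58 FPKM in *Dnmt3b CI/CI*. Without the embryos 2 and 3 labelled *Dnmt3b-/-*, *Tcf15* was at 1.70, a difference that rests on embryo 1 of that label alone, where *Tcf15* was highest. Without *Dnmt3b+/+* embryos 2 and 3, with 1 embryo of that genotype left, it was at 1.14. Against *Dnmt3b CI/CI*, 1 somite gene fell by at least 2-fold, beside 5.42% of all genes, and 3 fell at the adjusted p alone (*Pax1*, *Meox2* and *Scx*), beside 27.9%. The first was *Pax1*, with 8.20, 8.53 and 10.4 FPKM in the *Dnmt3b CI/CI* embryos and 6.72, 3.92 and 2.06 FPKM in those labelled *Dnmt3b-/-* (log2 -1.22, adjusted p = 0.0314). Without the embryos 2 and 3 labelled *Dnmt3b-/-*, with 1 embryo of that label left, the difference of *Pax1* was -0.42.

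Of the 12 posterior Hox genes, which specify lumbar to tail levels and distal limb, 11 could be tested, and 1, *Hoxd12*, rose against *Dnmt3b+/+* (log2 1.13, adjusted p = 0.0265), where 4.45% of all genes passed with the fold change and 25.8% at the adjusted p alone. The median of the 11 was 0.75 in that contrast and 0.59 in *Dnmt3b CI/CI* against *Dnmt3b+/+*, where 0 passed, beside the low sums of *Dnmt3b+/+* embryos 2 and 3. Without those 2 embryos, with 1 *Dnmt3b+/+* embryo left, the medians were 0.38 and -0.18, and *Hoxd12* was at 0.71. *Hoxb13*, the terminal gene of its cluster, was at 0.324 FPKM in *Dnmt3b+/+* embryo 3 on 28 reads and at 0.00819 to 0.0733 FPKM elsewhere, so that it was not tested. Of 5 notochord genes 4 were tested, of which 1 rose and 1 fell at the adjusted p alone, beside 25.8% of all genes. *Shh*, the signal of notochord, floor plate and limb, rose (log2 1.18, adjusted p = 0.0029), at 4.29, 5.14 and 4.22 FPKM in the embryos labelled *Dnmt3b-/-* against 1.97, 1.66 and 2.22 FPKM in *Dnmt3b+/+*, while *T*, which is shared by notochord and tail bud, was not called. *Nog*, which encodes the BMP antagonist noggin, fell against *Dnmt3b+/+* (log2 -0.93, adjusted p = 0.00584) and against *Dnmt3b CI/CI* (log2 -0.94, adjusted p = 0.00471), with levels of 5.95 to 7.48 FPKM in those 6 embryos and of 4.62, 3.18 and 2.98 FPKM under the *Dnmt3b-/-* label, and was named after its values were seen. Of the 15 neurogenic genes 0 passed with the fold change against *Dnmt3b+/+* and 1 fell at the adjusted p alone, *Neurog2* (log2 -0.95, adjusted p = 0.0314), and of the 6 kidney genes 0 passed at either threshold and 1 had an unadjusted p under 0.05, beside 40.0% of all genes. Without the embryos 2 and 3 labelled *Dnmt3b-/-*, 1 embryo of that label was left. The differences of *Hoxd12*, *Shh*, *Nog* and *Neurog2* from *Dnmt3b+/+* were then 0.71, 1.11, -0.55 and -0.76. In *Dnmt3b CI/CI* against *Dnmt3b+/+*, 0 genes of any of the 7 lists passed at either threshold, beside 0.129% and 0.144% of all genes. An unadjusted p under 0.05 was reached by 4 of the 15 neurogenic genes, 3 of the 15 tail bud genes, 3 of the 27 of the presomitic mesoderm, clock and Notch list and 0 to 2 of each other list, beside 5.25% of all genes.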

How the data were processed

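RNA-seq was performed by the authors on 9 embryos at E11.5, with 1 library each. Trimmed paired-end reads were aligned with STAR to mm10, alignments of high mapping quality were kept, and genes were quantified in SeqMonk. The authors deposited 1 table of FPKM values that are not log-transformed. The release of the annotation, the strand setting and the counting of pairs or reads are not given in the sources used here. Bisulfite libraries were not analysed here.

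Of 34245 entries, 1 without an identifier was left out, and 46 repeat an identifier. No value is 0, and genes with no reads sit at a floor of 0.9 reads. From that floor and GENCODE M21 exon lengths the library totals and the reads behind a value were recovered, and all 90 values of the 10 genes came out whole, or at the floor, within 0.02 reads. Genes of at least 0.1 FPKM in at least 3 of 9 embryos (19397 genes) entered a limma model (version 3.58.1, R 4.3.3) of log2(FPKM + 0.1), 1 fit of all 9 embryos with a variance trend, and p-values were adjusted by Benjamini-Hochberg over all genes tested. Calls needed an adjusted p under 0.05 together with a 2-fold change, and counts at the adjusted p alone are given beside. The method was tested on simulated data of 19397 genes, in which 96% of log2 changes of 1.5 planted for the contrast of *Dnmt3b-/-* with *Dnmt3b+/+* were recovered. The planted changes, of 1.5 to 4, were larger than any difference found for the members. The recovery of changes as small as those of the members was not tested. The labels call the embryos independent. The p-values rest on 1 estimate of spread per gene, pooled over the 3 genotypes with 3 embryos each and drawn towards the variance trend. Each contrast thus also uses the spread of the genotype that is not compared. The count tool named by the authors, DESeq2, was not run, as the values are not counts.

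Genes named are the 10 members, from each list up to 4 genes called in the embryos labelled *Dnmt3b-/-* against *Dnmt3b+/+* with the largest change, *Fgf8*, *Wnt3a*, *Shh* and *Hoxb13*, and for 4 members the 5 genes of highest Pearson r; others were named after their values were seen. Results for some marker genes are not reported here. Members and lists were chosen with earlier results of these data known. Motifs were searched in RefSeq promoters with Python 3.11.15. Alternatives were other pseudocounts (0.01 and 1 FPKM), filters and scalings, fewer embryos and a replicate block.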

Additional observations from a re-analysis of the deposited data

How the results depend on the processing

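At the threshold with a fold change of at least 2, 0 members were called in each of the 3 contrasts under every alternative tried. In the embryos labelled *Dnmt3b-/-* against *Dnmt3b+/+* the count at the adjusted p alone ranged from 0 to 1 when 1 embryo was left out and was 0 otherwise, and in *Dnmt3b CI/CI* against *Dnmt3b+/+* it was 0 throughout. In the embryos labelled *Dnmt3b-/-* against *Dnmt3b CI/CI* the 2 calls at the adjusted p alone became 1 with a pseudocount of 0.01 FPKM (where *Hes7* was at -1.17, past 2-fold, with an adjusted p of 0.0522), 1 with a filter of 1 FPKM (where *Hes7* was not tested), 1 with quantile normalization, 0 without a filter (where the differences were the same) and 4 with only the 6 embryos compared. The calls ranged from 0 to 4 when 1 embryo was left out. Of all genes, 5407 of 19397 passed in the main fit, 5362 of 19397 with the pseudocount of 0.01 FPKM and 4192 of 34244 without a filter. Those of the other alternatives are not given here, so their counts of members cannot be set against all genes. Leaving out both embryos 2 and 3 of a genotype was an alternative chosen after seeing the data, and left 1 embryo there. Quantile normalization moved the median over all genes in this contrast from -0.08 to 0.03. The cause of these changes was not tested. With 1 embryo left in a genotype, that embryo was assumed to vary like the others.

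With the replicate number of the labels as a replicate block the 2 calls became 0. The numbers mark no shared animal. Over the 9 pairs of the same number the mean correlation of deviations from the genotype means was -0.0865, with a range of -0.34 to 0.215. Such deviations sum to 0 within a genotype, so the 18 other pairs are no independent comparison. Whether the numbers mark a shared batch was not tested. The block changed no other count of members.

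Signs turned only for genes that were not called. *Tbx6* in the embryos labelled *Dnmt3b-/-* against *Dnmt3b CI/CI* was at 0.024 with median-of-ratios scaling and 0.23 with quantile normalization. When 1 embryo was left out, the log2 difference ranged from -0.15 to 0.12 for *Tbx6*, -0.12 to 0.20 for *Lfng* and -0.72 to 0.054 for *Uncx* in that contrast, from -0.41 to 0.070 for *T*, -0.35 to 0.014 for *Meox1* and -0.70 to 0.081 for *Uncx* in the embryos labelled *Dnmt3b-/-* against *Dnmt3b+/+*, and from -0.34 to 0.16 for *Dll3*, -0.018 to 0.39 for *Hes7* and -0.17 to 0.33 for *Uncx* in *Dnmt3b CI/CI* against *Dnmt3b+/+*. Without both embryos 2 and 3 labelled *Dnmt3b-/-*, *T* was at 0.12, *Lfng* at 0.25, *Uncx* at 0.72 and *Meox1* at 0.15 against *Dnmt3b+/+*, and *Tbx6* at 0.20 and *Uncx* at 0.70 against *Dnmt3b CI/CI*. Without *Dnmt3b+/+* embryos 2 and 3, *Uncx* was at 0.16 in the embryos labelled *Dnmt3b-/-* and *Dll3* at 0.10 in *Dnmt3b CI/CI*. Depth limits *Msgn1*, *Mesp2*, *Hes7*, *T* and *Tbx6*, which rest on 44 reads or fewer per library.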

Other observations

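*Hbb-bh1*, an embryonic globin gene of primitive red cells, rose in the embryos labelled *Dnmt3b-/-* against *Dnmt3b+/+* (log2 3.01, adjusted p = 0.00418, limma), at 113, 501 and 265 FPKM against 26.9, 46.1 and 23.3 FPKM, and was at 20.2 to 26.8 FPKM in *Dnmt3b CI/CI*. Its difference from *Dnmt3b+/+* was 1.88 without the embryos 2 and 3 labelled *Dnmt3b-/-* and 3.19 without *Dnmt3b+/+* embryos 2 and 3. Each of these fits leaves 1 embryo in a genotype. *Hba-a1*, which encodes alpha globin, was at -0.46 in the same contrast (adjusted p = 0.435), at 432 to 1240 FPKM in the embryos labelled *Dnmt3b-/-* and 724 to 1525 FPKM in *Dnmt3b+/+*. *Myog*, a regulator of muscle differentiation in the myotome of the somite, fell against *Dnmt3b+/+* (log2 -1.25, adjusted p = 0.0405) and against *Dnmt3b CI/CI* (log2 -1.68, adjusted p = 0.0128). It was at 17.2, 5.76 and 5.87 FPKM in the embryos labelled *Dnmt3b-/-*, so that the low values lay in the embryos in which trunk Hox genes were low, against 16.4, 20.2 and 24.0 FPKM in *Dnmt3b+/+*. Without those 2 embryos, with 1 embryo of that label left, *Myog* was at -0.21 against *Dnmt3b+/+* and at -0.64 against *Dnmt3b CI/CI*. These 3 genes were on a list of organ markers and were named after their values were seen.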
